A study of Mus musculus with 11 samples.

Results

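The mitochondrial ribosomal proteins are described here across hearts of mice on a control diet, on an obesogenic diet, and on an obesogenic diet with a senolytic cocktail. The genes were taken from the count table by name alone: an Ensembl mouse identifier counted when GENCODE (genome build GRCm38) gives it as protein-coding with a symbol that starts with Mrpl or Mrps. That rule took 78 of 55487 identifiers, 49 with Mrpl and 29 with Mrps symbols, spread over 17 chromosomes. No measured value entered the choice. All 78 passed the filter on low counts, and the lowest count of any of them in any library was 46.

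The hearts came from female C57BL/6NTac mice, an inbred strain, that were 8 weeks old when the diets began and stayed on them for 24 weeks. The control group (4 libraries) ate a diet with 10.4% of its energy from fat. The obese group (4 libraries) ate a diet with 60.3% of its energy from fat plus sweetened condensed milk, and received the vehicle, 10% PEG400, by gavage. The treated group (3 libraries) ate as the obese group did and from week 16 received dasatinib (5 mg/kg) and quercetin (50 mg/kg) in the same vehicle. The cocktail joins a kinase inhibitor, dasatinib, to a flavonoid found in plants, quercetin, and is given to clear senescent cells. The sources used here do not give whether control mice were gavaged, so diet and gavage cannot be told apart in the comparison of obese with control hearts. No label ties a library to its own animal, so p-values rest on differences among libraries that could be technical.

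The mitochondrial ribosome makes the proteins that the mitochondrial chromosome encodes, all of them parts of the respiratory chain or of ATP synthase. Its ribosomal RNAs are transcribed inside the organelle, while every one of its proteins is encoded in the nucleus, made on cytosolic ribosomes and imported. The heart depends on oxidative phosphorylation, and assembly of that system needs both genomes. Some subunits descend from bacterial ribosomal proteins, and others were added during the evolution of mitochondria. Of the 78 genes, 51 encode large-subunit proteins and 26 small-subunit proteins. Mrps36 belongs to neither, because its product is now assigned to the oxoglutarate dehydrogenase complex. Among the other 77, 46 are of bacterial type and 31 are specific to mitochondria. Symbols can mislead: Mrps30 and Mrps18a encode proteins of the large subunit.

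Start regions are shown first, with the short motifs searched for in them. A link of these motifs to changes between the diets was not tested. RefSeq (GRCm38.p6) gave a window from 250 bases before to 50 bases after the start for 69 of the 78 genes, and no window for Mrpl13, Mrpl15, Mrpl19, Mrpl38, Mrpl4, Mrpl54, Mrps28, Mrps34 and Mrps35. The stretches below end at the first annotated exon base, read 5′ to 3′ on the gene's strand, and carry motif matches in capitals. Mrpl9 (chr3:94443086-94443317, plus strand) has a palindrome in which GCATGCGC, the core of the site bound by nuclear respiratory factor 1, matches on both strands. Mrpl22 (chr11:58171414-58171660, plus strand) holds that motif and CCGGAAG, the core of ETS sites such as those of GABPA. Mrpl43 (chr19:45006443-45006557, minus strand) holds CCGGAAG at 2 places. The last pair is the 29 bases at chr7:78783090-78783118 between the RefSeq starts of Mrps11 (plus strand) and Mrpl46 (minus strand), a small-subunit and a large-subunit gene transcribed away from each other, shown on each strand with no match. The full Mrps11 window does hold a match, to the YY1 core named next, outside these bases.
Mrpl9: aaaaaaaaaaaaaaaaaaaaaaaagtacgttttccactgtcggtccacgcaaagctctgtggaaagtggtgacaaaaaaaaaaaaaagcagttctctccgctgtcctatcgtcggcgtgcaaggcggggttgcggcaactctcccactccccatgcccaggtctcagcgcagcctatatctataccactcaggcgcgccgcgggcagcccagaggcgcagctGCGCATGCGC
Mrpl22: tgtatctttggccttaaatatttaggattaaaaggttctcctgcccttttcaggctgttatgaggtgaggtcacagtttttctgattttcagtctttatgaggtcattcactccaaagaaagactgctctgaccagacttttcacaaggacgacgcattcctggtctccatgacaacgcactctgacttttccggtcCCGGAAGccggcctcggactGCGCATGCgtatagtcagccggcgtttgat
Mrpl43: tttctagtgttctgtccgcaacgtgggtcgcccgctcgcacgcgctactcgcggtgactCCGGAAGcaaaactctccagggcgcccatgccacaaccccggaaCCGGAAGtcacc
Mrps11: ccatgaggcaacgcgggccggcgaggggc
Mrpl46: gcccctcgccggcccgcgttgcctcatgg

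Over the 69 windows, counting matches on either strand, CCGGAAG stood in 25 (36.2%), against 9.12% of 27025 windows of all genes and 11.9% of 17491 windows of protein-coding genes. GCATGCGC stood in 8 windows (11.6%), against 2.81% of all and 3.60% of protein-coding windows. AAGATGGCG, the core bound by YY1, also stood in 8 (11.6%), against 1.50% and 1.94%. TCAAGGTCA, a site of estrogen-related receptors, was in none of the 69 and in 0.407% of all windows. At least 1 of these motifs was present in 35 windows (50.7%), against 12.9% of all and 16.5% of protein-coding windows. The member windows were also richer in CpG, with a median of 21 CpG pairs against 13 in protein-coding windows. A match says only that these letters are present.

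Across the libraries, totals ran from 52.7 to 103.3 M counts, and each control library was deeper than each obese and treated library. Levels are CPM, a gene's counts divided by the size of its library and brought to one common scale, with library sizes scaled by TMM, a method that assumes that most genes do not change; its factors were 0.733 to 0.954 in control, 1.02 to 1.19 in obese and 1.05 to 1.20 in treated libraries. The mitochondrial chromosome took 28.2% to 32.3% of counts in control, 21.4% to 24.5% in obese and 17.8% to 22.4% in treated libraries. Loci annotated as sense-intronic or as TEC (awaiting experimental evidence), called the intronic share here, took 0.286% to 0.590% of counts in control, 0.663% to 0.811% in obese and 0.509% to 0.671% in treated libraries. Cardiomyocyte markers were abundant in every library (Myh6 from 10661 to 19702 CPM). The summed level of 5 atrial myocyte markers was 1979 CPM in obese replicate 3, 2597 in treated replicate 2 and 5388 in treated replicate 3, and from 15.5 to 185 CPM elsewhere. In tissue RNA, fewer cells of a type and less RNA per cell cannot be told apart.

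The comparison of obese with control hearts asks how the long obesogenic diet changed the cardiac transcripts of this ribosome. Of the 78 genes, 38 were lower in obese hearts, 0 were higher and 40 did not pass (edgeR's quasi-likelihood test, Benjamini-Hochberg adjusted p under 0.05 over 23779 genes). Over all genes tested 15.7% were lower and 14.4% were higher. Among protein-coding genes with a mean CPM in the range of the 78 genes 26.0% were lower and 12.3% higher. Of the 78 fitted changes 77 were below 0, with a median of −0.45 on the log2 scale and an interquartile range from −0.66 to −0.29, beside a median of 0.11 over all genes and −0.04 over 15644 protein-coding genes. The widest falls among called genes were those of Mrpl53, Mrpl30, Mrps24 and Mrpl42, the 4 genes with a fitted change beyond 2-fold. Of the large-subunit genes 24 of 51 were lower (median −0.44), and of the small-subunit genes 13 of 26 (median −0.46).

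These changes are relative to the scaled libraries. On deposited library totals without scaling, the median of all genes rose to 0.53 and that of the 78 genes was −0.02, with 9 lower and 3 higher, beside 4.04% of all genes lower and 38.1% higher; of the 38 lower genes 35 kept a fitted change below 0 there, all except Mrpl1, Mrpl2 and Mrpl4. Relative to the median of all genes the 78 stood at −0.56 with TMM and −0.55 on unscaled totals. A change of scaling shifts all genes about alike, so these values had to be close and their likeness is no support. In the fit of protein-coding genes only, the 78 stood at −0.40 relative to the median of the genes tested. The share of all counts taken by the 78 genes was 0.132%, 0.124%, 0.140% and 0.145% in the control libraries, 0.126%, 0.122%, 0.128% and 0.141% in the obese, and 0.141%, 0.151% and 0.139% in the treated libraries. On that scale the control and obese groups overlapped. Without control replicate 2, the control library with the lowest levels, 60 of the 78 were lower in obese hearts, beside 18.7% of all genes.

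The intronic share moved with these levels. It did not overlap between control and obese libraries, and within each group the library with the highest summed level of the 78 genes had the lowest share. With the share as a covariate 0 of the 78 were lower or higher at an adjusted p under 0.05, and their median changed sign to 0.13. At an unadjusted p under 0.05 there were 2 members lower and 6 higher, beside 6.14% of all genes higher. In that fit edgeR called 86 genes lower and 35 higher in the whole table. The diet and the share cannot be told apart in these libraries.

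Markers of cell types moved between the diets as well, and their part in these changes was not tested. Of 3 endothelial markers 2 were lower in obese hearts, Cdh5 (log2 fold change −0.62, edgeR adjusted p = 0.00236) and Kdr (−0.59, edgeR adjusted p = 0.0156), and their summed level was 621 to 740 CPM in control, 442 to 532 in obese and 445 to 478 in treated libraries. Of 6 cardiomyocyte markers 2 were lower, Tnnt2 (−0.41) and Myl2 (−0.84), while the sums overlapped, at 26088 to 36270 CPM in control, 21318 to 32122 in obese and 27455 to 31904 in treated libraries. All 4 white adipocyte markers were higher in obese hearts at very low levels, summing to 0.0991 to 0.258 CPM in control, 0.308 to 7.09 in obese and 0.695 to 8.69 in treated libraries. Of the brown adipocyte markers Ucp1 did not exceed 0.0853 CPM and was at 0 in all obese libraries, whereas Cidea fell from 13.9 ± 3.07 to 5.14 ± 0.709 CPM (SD, n = 4 each; log2 fold change −1.43, edgeR adjusted p = 0.000375) without overlap. No fibroblast, macrophage, erythroid, skeletal muscle or atrial marker passed.

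**Figure D1:**
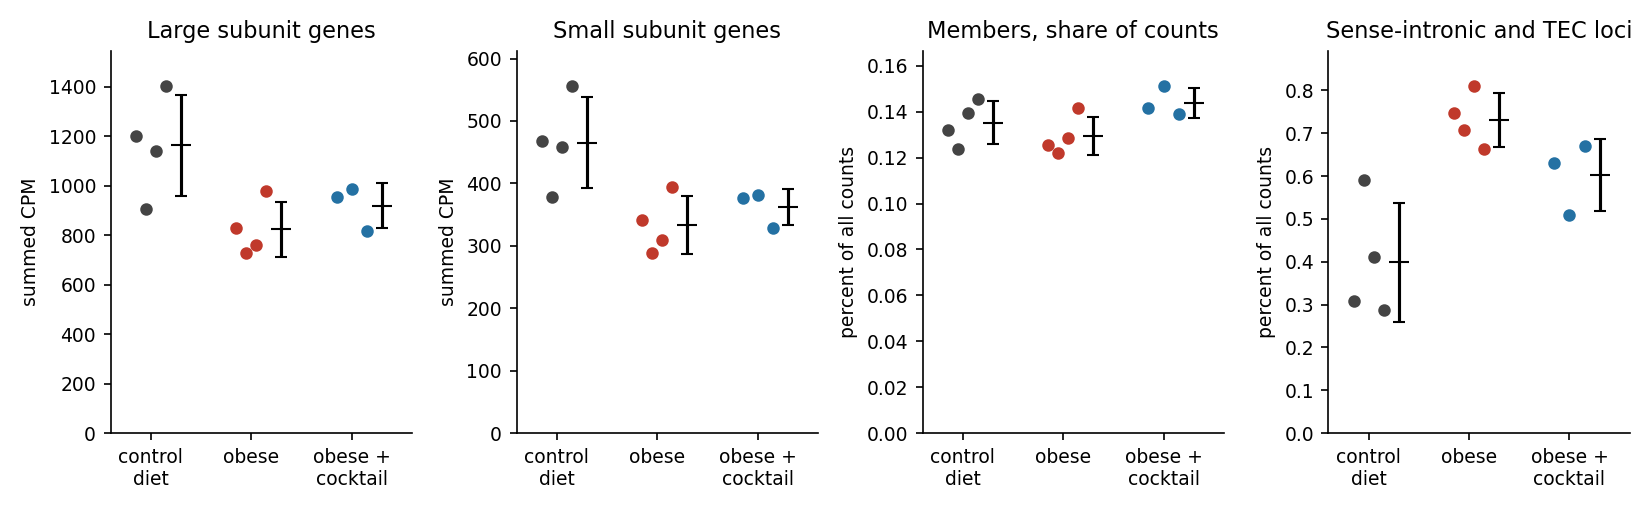
Summed CPM of the large-subunit and small-subunit genes, share of all counts taken by the 78 genes, and share taken by sense-intronic and TEC loci (vertical axes, from 0), with 1 point per library and the mean ± SD beside each group. Mean summed levels were lower in obese than in control hearts on the TMM scale, with overlap between the libraries of these groups. The share of all counts overlapped as well, while the sense-intronic and TEC share did not.

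Summed over the large subunit, levels were 1201, 908, 1143 and 1406 CPM in control libraries, 831, 727, 762 and 979 in obese, and 954, 989 and 819 in treated libraries. Control replicate 2 lay under obese replicate 4, so the groups overlapped at that pair only. Small-subunit sums were 465 ± 72.8 CPM in control (SD, n = 4), 334 ± 46.2 in obese (SD, n = 4) and 362 ± 28.8 in treated hearts (SD, n = 3). The ratio of large to small sums stayed between 2.40 and 2.59 in all 11 libraries, at 2.50 ± 0.0731 in control, 2.47 ± 0.0364 in obese and 2.54 ± 0.0518 in treated hearts. Control replicate 2 had 75 of the 78 genes under its group's mean, and obese replicate 4 had 75 of the 78 above its own. Those libraries held the highest intronic share of the control group and the lowest of the obese group.

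Mrps30, a mitochondrion-specific protein of the large subunit (chr13:118378381-118387252), had the smallest p. Its level was 26.5, 23.3, 29.3 and 32.2 CPM in control libraries and 13.9, 12.0, 15.5 and 17.1 CPM in obese libraries. Every obese library lay under every control library. The log2 fold change was −0.93 ± 0.14 (SE; edgeR's quasi-likelihood test, adjusted p = 0.000601), a 1.90-fold fall. In treated libraries Mrps30 stood at 18.5, 19.3 and 15.2 CPM, between the other groups on average.

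Mrpl30, a bacterial-type protein of the large subunit (chr1:37890477-37898535), was at 62.0, 44.0, 52.1 and 71.3 CPM in control and at 25.3, 19.7, 27.6 and 35.0 CPM in obese libraries. The groups were apart, and the fall of 2.13-fold (log2 fold change −1.09 ± 0.18 SE, edgeR adjusted p = 0.00103) was among the widest. Mrpl33, another bacterial-type protein, had the smallest relative spread of the 78 within the obese group, at 20.7, 19.5, 20.9 and 20.0 CPM against 31.7, 29.9, 27.2 and 40.1 in control. Mrpl15 fell from 32.7 ± 5.41 to 20.5 ± 2.64 CPM (SD, n = 4 each; log2 fold change −0.67, edgeR adjusted p = 0.00226). Mrpl11, which forms the base of the stalk where translation factors bind, fell from 27.5 ± 5.71 to 15.7 ± 2.56 CPM (log2 fold change −0.81, edgeR adjusted p = 0.0028). Mrpl23, near the exit of the peptide tunnel, fell from 16.7 ± 2.66 to 10.3 ± 1.62 CPM (log2 fold change −0.70, edgeR adjusted p = 0.00361). A named pseudogene of Mrpl23 is in the annotation, and reads shared with it could have been split between the loci.

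Mrpl42, specific to mitochondria (chr10:95480805-95501940), was at 53.1, 30.7, 49.2 and 70.8 CPM in control and at 24.4, 18.2, 28.4 and 29.8 CPM in obese libraries. The lowest control library lay just above the highest obese library, and the log2 fold change was −1.01 ± 0.23 (SE; edgeR adjusted p = 0.00618). Mrpl53, also specific to mitochondria (chr6:83109040-83109939), had the largest fitted fall, 3.50-fold (log2 fold change −1.81 ± 0.55 SE, edgeR adjusted p = 0.0292). Its control values were scattered at 1.88, 1.26, 5.25 and 8.74 CPM, and its obese values were 0.908, 0.723, 1.69 and 1.56 CPM. The groups overlapped, and leaving out control replicate 3 or 4 or obese replicate 1 or 2 ended its call, with adjusted p up to 0.0846 and a change of −1.21 without control replicate 4. The call was also lost with no filter on low counts, with limma voom and without the 3 libraries of highest atrial markers. Mrpl53 shares exon positions with other annotated loci, whose reads the table may not separate from its own.

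Among small-subunit genes the smallest p belonged to Mrps15, a bacterial-type protein (chr4:126046925-126055532). Its level was 24.5, 20.0, 24.7 and 29.7 CPM in control and 14.6, 12.0, 13.3 and 14.6 CPM in obese libraries, with no overlap. The log2 fold change was −0.86 ± 0.13 (SE; edgeR adjusted p = 0.000713). Mrps24, a bacterial-type protein (chr11:5703983-5715680), was at 20.0, 15.2, 19.9 and 25.8 CPM in control and at 9.43, 8.35, 9.73 and 12.1 CPM in obese libraries. It fell 2.04-fold without overlap (log2 fold change −1.03 ± 0.17 SE, edgeR adjusted p = 0.00124). Mrps24 shares exon positions on the same strand with Urgcp, which was more abundant and lower too (55.7 ± 7.13 to 42.6 ± 4.77 CPM; −0.39, edgeR adjusted p = 0.022), and reads of the pair may not be separable. Mrps23, specific to mitochondria, fell from 49.8 ± 10.6 to 28.8 ± 4.86 CPM (SD, n = 4 each; log2 fold change −0.79, edgeR adjusted p = 0.00375). Mrps31, likewise specific to mitochondria, fell from 16.3 ± 2.40 to 10.4 ± 1.42 CPM (log2 fold change −0.64, edgeR adjusted p = 0.00423).

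The 3 Mrps18 genes, which are named for 1 bacterial protein, differed in their calls. Mrps18c was at 11.1, 8.03, 9.24 and 11.4 CPM in control and at 6.66, 5.42, 4.31 and 5.52 CPM in obese libraries, and fell without overlap (log2 fold change −0.86 ± 0.18 SE, edgeR adjusted p = 0.00384). Mrps18b fell from 19.9 ± 2.04 to 12.9 ± 2.49 CPM (SD, n = 4 each; log2 fold change −0.63 ± 0.14 SE, edgeR adjusted p = 0.00644). Mrps18a, whose protein sits in the large subunit, was at 19.9, 15.2, 18.6 and 23.9 CPM in control and at 16.0, 19.1, 12.7 and 20.1 CPM in obese libraries. Its groups overlapped, and its change of −0.19 (95% interval from −0.55 to 0.16) did not pass. The differences between the 3 changes were not tested.

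Mrpl12 and Mrps12 have roles that set them apart: the former builds the flexible stalk that recruits translation factors, and the latter lines the decoding centre. Mrpl12 was at 43.5, 27.6, 44.0 and 52.4 CPM in control and at 35.1, 29.6, 30.1 and 43.1 CPM in obese libraries. The groups overlapped and the change of −0.28 (95% interval from −0.68 to 0.12; edgeR adjusted p = 0.273) did not pass. Mrps12 was at 7.77, 4.78, 8.19 and 9.75 CPM in control and at 4.64, 4.26, 4.75 and 6.70 CPM in obese libraries. Its change of −0.58 (95% interval from −1.04 to −0.12) missed the threshold, with an edgeR adjusted p of 0.0543, and passed under DESeq2, under RLE scaling, with a replicate block and without control replicate 2 or obese replicate 4. Mrpl58 is related to release factors and frees peptides from stalled ribosomes. It fell from 30.4 ± 4.70 to 20.3 ± 2.55 CPM (SD, n = 4 each; log2 fold change −0.58, edgeR adjusted p = 0.00489) without overlap. Mrps36 was at 19.4, 11.2, 16.1 and 21.9 CPM in control and at 10.0, 10.3, 10.7 and 11.8 CPM in obese libraries, and its fall of −0.68 passed (edgeR adjusted p = 0.0122) although control replicate 2 lay inside the obese range. The annotation names 3 pseudogenes of Mrps36, which could have taken or given reads. Exchanging Mrps36 for the 5 ribosomal genes with other symbols gave 41 of 82 lower.

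Mrps6 was the only member with a fitted change above 0. Its level was 3.24, 2.81, 4.09 and 4.07 CPM in control and 3.30, 3.60, 5.24 and 3.61 CPM in obese libraries. The groups overlapped and the change of 0.15 (95% interval from −0.35 to 0.64) did not pass. Mrps6 shares exon positions on the same strand with Slc5a3, a myo-inositol transporter gene, which rose from 13.2 ± 1.38 to 28.9 ± 5.85 CPM (SD, n = 4 each; log2 fold change 1.13, edgeR adjusted p = 0.00146). Reads of the pair may not be separable, so the level of Mrps6 is uncertain. The next 3 in order were Mrps10, Mrpl19 and Mrpl49, at −0.04, −0.05 and −0.13. Mrps10 was at 12.5, 13.4, 14.0 and 12.3 CPM in control and at 12.5, 11.5, 12.5 and 14.3 CPM in obese libraries, with overlapping groups and a 95% interval from −0.28 to 0.20. On unscaled totals Mrps10 and Mrpl19 were called higher, at 0.37 and 0.39.

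**Figure D2:**
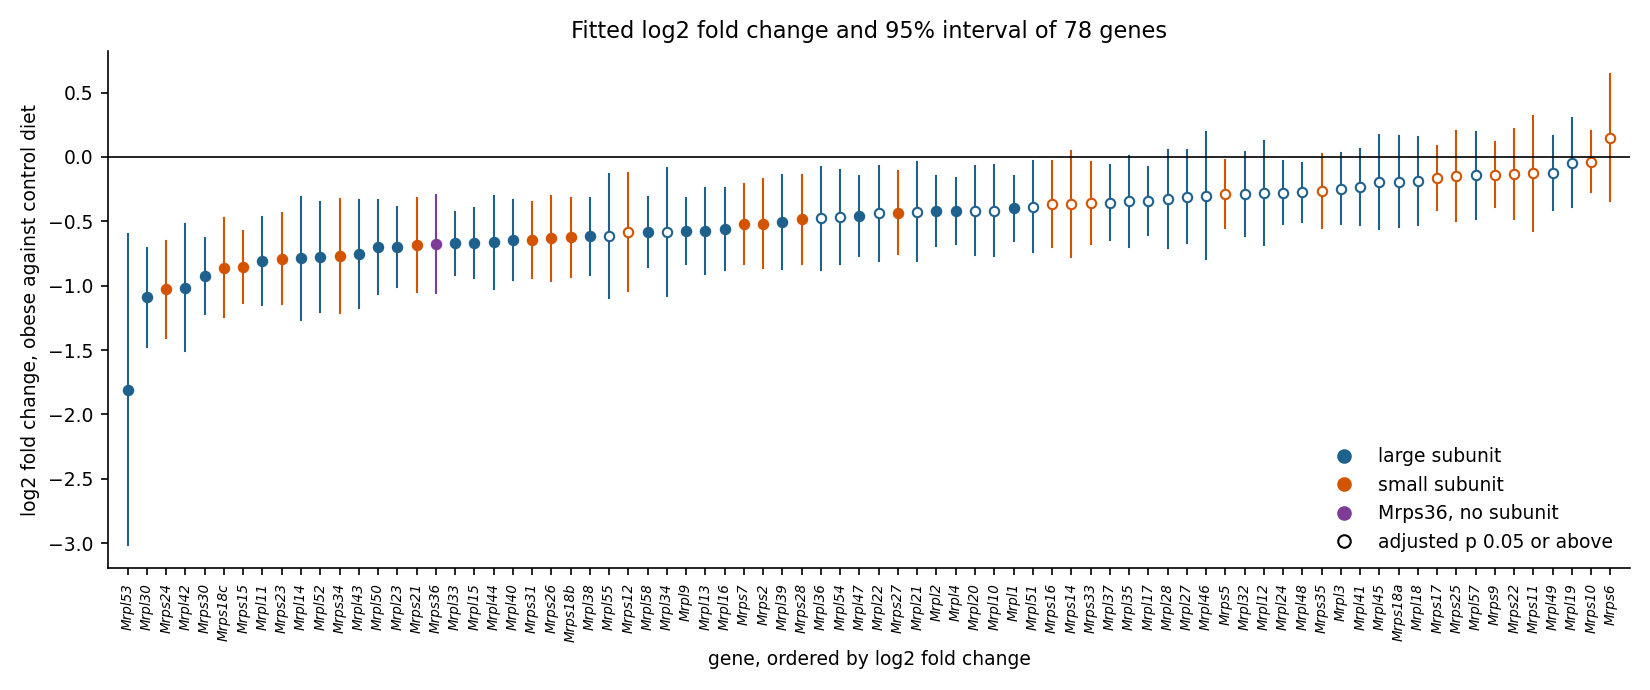
Fitted log2 fold change of each of the 78 genes, obese against control (vertical axis), with its 95% interval as a line, ordered from the largest fall to the single value above 0 (Mrps6). Filled points passed an adjusted p of 0.05, and colours mark the large subunit, the small subunit and Mrps36. The 38 filled points are all below 0 on the TMM scale shown, and large- and small-subunit genes are interspersed along the order.

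Besides the genes above, Mrpl4, Mrpl14, Mrpl52 and Mrps21 passed, as did 18 others: Mrpl1, Mrpl2, Mrpl9, Mrpl13, Mrpl16, Mrpl38, Mrpl39, Mrpl40, Mrpl43, Mrpl44, Mrpl47, Mrpl50, Mrps2, Mrps7, Mrps26, Mrps27, Mrps28 and Mrps34. The changes of these 18 ran from −0.77 (Mrps34) to −0.40 (Mrpl1). Of the 38 calls 28 held when each of the 11 libraries was left out in turn. The others, Mrpl1, Mrpl2, Mrpl4, Mrpl14, Mrpl39, Mrpl47, Mrpl53, Mrps2, Mrps27 and Mrps28, missed the threshold without at least 1 library. For 20 of the 78 genes every obese library lay under every control library (25.6%), beside 14.7% of all genes tested (13.8% lay above). Among protein-coding genes the share under was 20.4%, and 24.1% among those with a mean CPM in the range of the 78 genes. Bacterial-type subunits gave 20 of 46 lower (median −0.42) and mitochondrion-specific subunits 17 of 31 (median −0.51). Among the 45 genes that share no exon position with another gene 21 were lower (median −0.44), and among the 33 that do, 17 were lower (median −0.46). The latter include, of the genes described one by one, Mrpl33, Mrps18c, Mrps24, Mrpl53 and Mrps6 on the same strand, and on the opposite strand Mrpl9, Mrpl12, Mrpl14, Mrpl43, Mrpl46, Mrpl49, Mrpl58, Mrps11, Mrps18b and Mrps30.

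**Figure D3:**
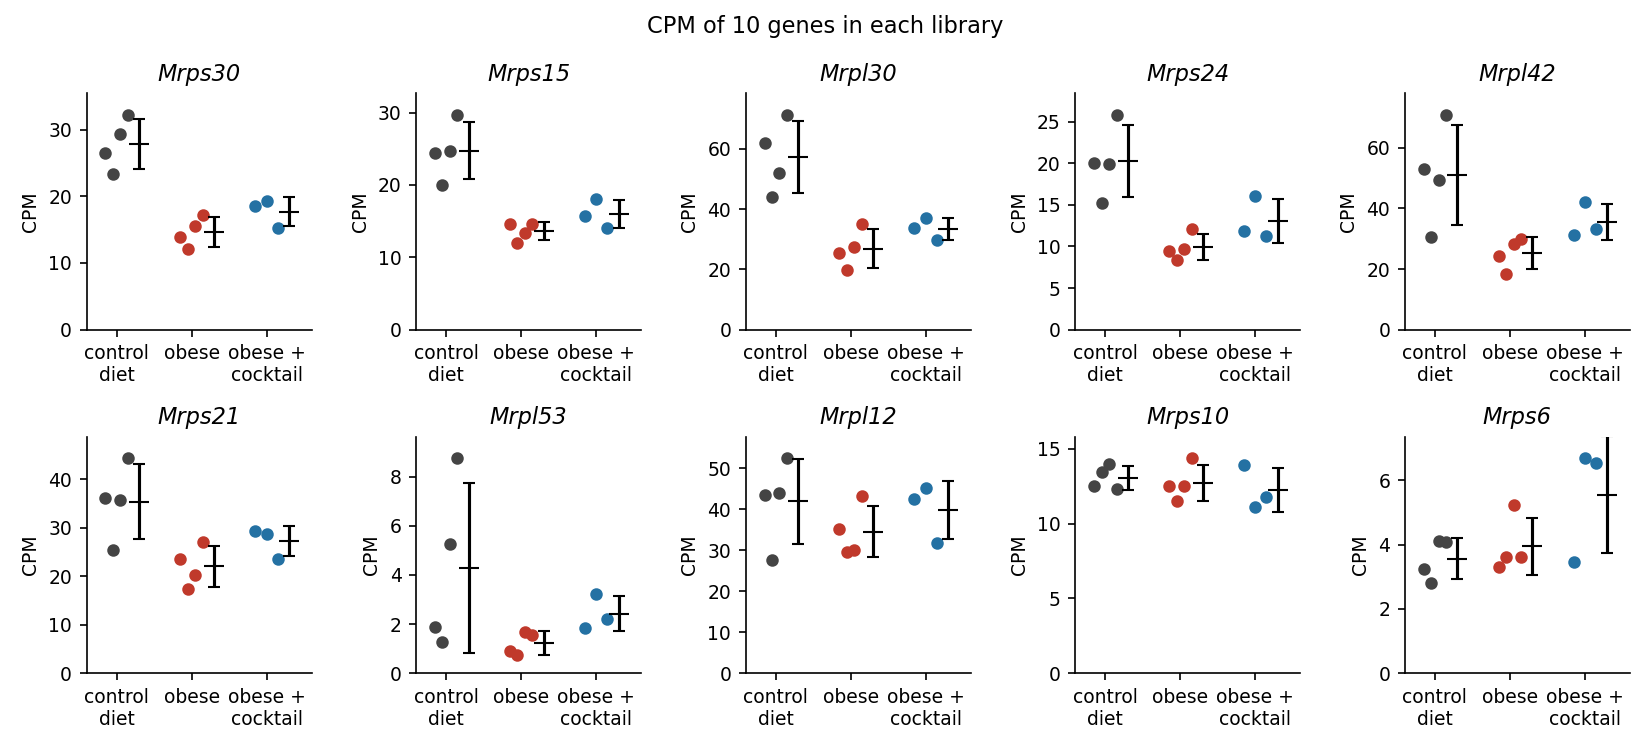
CPM of 10 genes in each library (vertical axes from 0, 1 point per library), by group, with the mean ± SD at the side. Mrps30, Mrps15, Mrpl30, Mrps24 and Mrpl42 lie lower in every obese library than in every control library on the TMM scale, Mrps21 and Mrpl53 overlap, and Mrpl12, Mrps10 and Mrps6 did not pass.

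The start regions printed above can be set beside these changes. Mrpl9, with the palindrome, was at 23.2, 19.9, 22.7 and 26.3 CPM in control and at 17.6, 14.4, 13.4 and 16.4 CPM in obese libraries, and fell without overlap (log2 fold change −0.58, edgeR adjusted p = 0.00387). Mrpl43 fell from 11.7 ± 2.34 to 6.96 ± 1.77 CPM (SD, n = 4 each; log2 fold change −0.75, edgeR adjusted p = 0.012), with overlapping groups. Mrpl22, which holds both motifs, had a change of −0.44 that missed the threshold (edgeR adjusted p = 0.0696). The divergent genes Mrps11 and Mrpl46 had changes of −0.13 and −0.30, and neither passed. At least 1 motif stood in 15 of the 32 windows of genes that were lower (46.9%) and in 20 of the 37 windows of genes that did not pass (54.1%).

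A further 23 members start head to head with a protein-coding neighbour within 1000 bp on the opposite strand. In those pairs 10 members were lower (median −0.43), while 5 neighbours were lower and 2 were higher (median 0.07). Over all genes tested 15.7% were lower and 14.4% higher, and over protein-coding genes 22.2% and 12.2%. Both genes were lower in 1 pair, Mrps27 with Ptcd2. Mrpl30 fell, and its neighbour Mitd1, whose annotated start lies 66 bases away, had a change of 0.05 (edgeR adjusted p = 0.831). The reverse held for Mrpl49 and Fau, which encodes a protein of the cytosolic ribosome: Fau fell (log2 fold change −1.03, edgeR adjusted p = 0.000319) and Mrpl49 had a change of −0.13. Reads of pairs that overlap at their starts cannot be assigned to a strand from the sources used here.

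**Figure D4:**
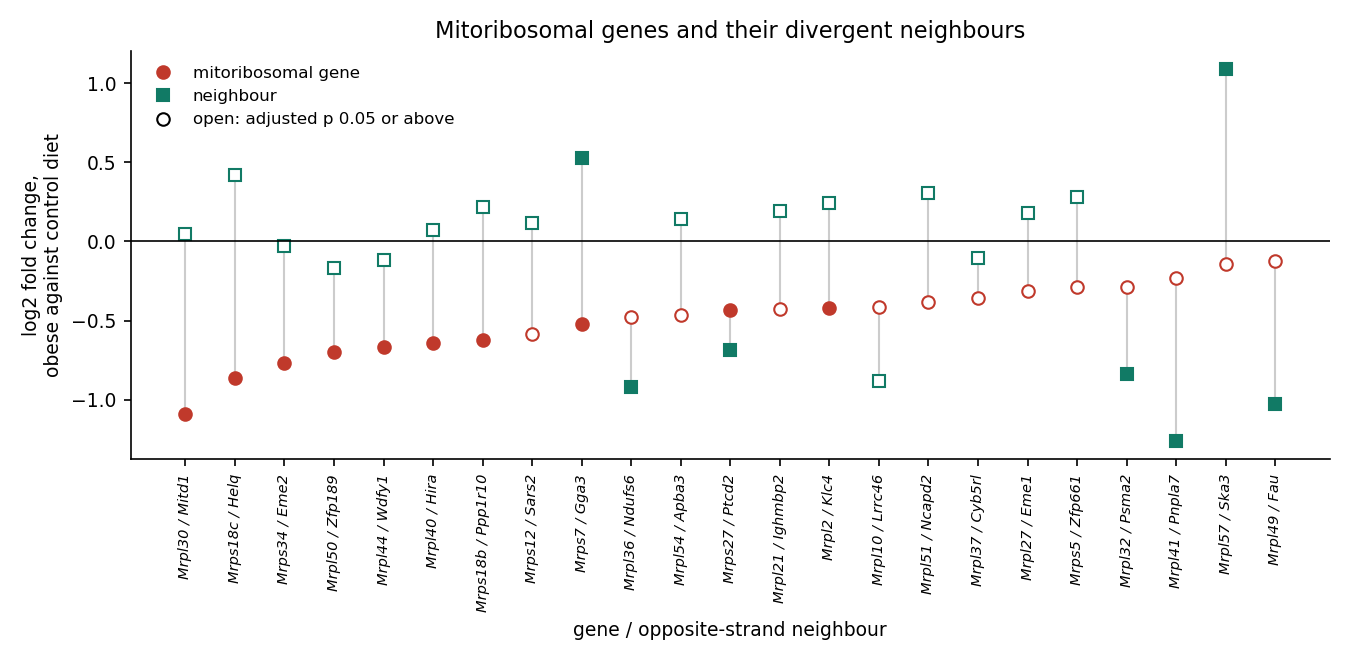
Log2 fold change, obese against control (vertical axis), of 23 mitoribosomal genes (circles) and their protein-coding neighbours on the opposite strand (squares), joined by a line per pair and ordered by the change of the mitoribosomal gene. Filled symbols passed an adjusted p of 0.05: 10 members and 5 neighbours below 0, and 2 neighbours above 0. Over all protein-coding genes tested 22.2% were lower and 12.2% higher.

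Fitted changes varied with transcript length. Over the 78 genes the Spearman correlation of the log2 fold change with the length of the longest coding transcript was 0.32, and over 15596 protein-coding genes 0.16. These are correlations across genes that share the same libraries. The 39 members with lengths under 1327.5 bases had a median of −0.48 and the 39 longer ones −0.40, with 19 lower in each set. Protein-coding genes split at that length had medians of −0.30 (1782 genes) and −0.02 (13814 genes). The Spearman correlation with mean expression was −0.07 over the 78 genes.

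Levels of different genes are compared as CPM per kilobase of annotated exon. On the control diet they ran from 1.61 for Mrps10 to 47.8 ± 10.5 (SD, n = 4) for Mrps21, with a median of 7.74, and the median was 5.49 in obese and 6.13 in treated hearts. After Mrps21, a small bacterial-type protein, came Mrps23 (31.9 ± 6.80), Mrpl34 (27.4 ± 8.88), Mrpl12 (27.3 ± 6.76), Mrpl14 (23.2 ± 6.46) and Mrpl41 (20.1 ± 3.07). From Mrps23 on, each of these lay within 1 SD of the next. At the low end Mrpl57 was at 1.71 ± 0.228, Mrps22 at 1.68 ± 0.343 and Mrps10 at 1.61 ± 0.0976. In obese hearts Mrps21 was still the highest of these, at 29.8 CPM per kilobase. With the length of the longest coding transcript in place of all exons, Mrpl42 came first and Mrps21 next, and 7 of the top 10 genes were shared.

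Of these 6 highest genes, Mrps21, Mrps23 and Mrpl14 were lower in obese hearts and Mrpl34, Mrpl12 and Mrpl41 did not pass. Mrps21 was at 36.1, 25.4, 35.7 and 44.3 CPM in control and at 23.6, 17.3, 20.3 and 27.0 CPM in obese libraries (log2 fold change −0.68, edgeR adjusted p = 0.00957). Control replicate 2 lay inside the obese range. Mrpl14 fell from 22.0 ± 6.13 to 12.7 ± 3.34 CPM (SD, n = 4 each; edgeR adjusted p = 0.0178). Mrpl34 was at 18.7, 9.75, 15.6 and 22.5 CPM in control and at 9.55, 9.76, 9.95 and 15.2 CPM in obese libraries (log2 fold change −0.58, edgeR adjusted p = 0.0724). At the low end Mrpl57 and Mrps22 had changes of −0.14 and −0.13, with 95% intervals from −0.48 to 0.20 and from −0.48 to 0.22.

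The rest of the mitochondrial translation machinery was read from lists, whose directions are those of TMM-scaled libraries. On unscaled totals the medians of the translation factors (0.27), synthetases (0.16), assembly factors (0.09) and regulators (0.30) turned above 0, beside 0.53 over all genes, with 5 of 12, 8 of 20, 6 of 27 and 6 of 13 genes higher and 0, 0, 1 and 3 lower; over all genes 38.1% were higher there and 4.04% lower. Of the genes named below as lower from these 4 lists, C1qbp, Myc, Tfam and Tfb2m also passed on unscaled totals and the others did not. Of 5 ribosomal genes with other symbols, 4 were lower in obese hearts (0 on unscaled totals). Dap3, a GTP-binding protein of the small subunit, was at 39.3, 33.6, 40.4 and 45.7 CPM in control and at 30.4, 26.9, 24.5 and 30.2 CPM in obese libraries (log2 fold change −0.51, edgeR adjusted p = 0.00652). Aurkaip1, also of the small subunit, fell from 17.8 ± 3.84 to 11.2 ± 1.42 CPM (SD, n = 4 each; edgeR adjusted p = 0.0109). Ptcd3 and Chchd1 were lower too, and Gadd45gip1 had a change of −0.33 that did not pass.

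Of 12 translation factors 4 were lower and 0 higher (median −0.15). Oxa1l, which inserts nascent proteins into the inner membrane, fell from 74.2 ± 9.96 to 47.3 ± 6.31 CPM (SD, n = 4 each; log2 fold change −0.65, edgeR adjusted p = 0.00246). Mtrf1, a release factor, fell from 4.80 ± 0.520 to 2.89 ± 0.0984 CPM (log2 fold change −0.73, edgeR adjusted p = 0.00468). The other 2 were the elongation factor Gfm1 (−0.71) and the recycling factor Mrrf (−0.63). Of 20 genes for aminoacyl-tRNA synthetases and the glutaminyl-tRNA amidotransferase 6 were lower and 0 higher (median −0.26), among them Mars2 (17.3 ± 0.700 to 12.4 ± 0.968 CPM) and Iars2 (103 ± 7.18 to 70.8 ± 9.39 CPM). Of 27 factors for assembly or ribosomal RNA modification 8 were lower and 1 higher (median −0.32). C1qbp, a matrix protein that binds RNA, fell from 62.3 ± 9.41 to 32.7 ± 6.76 CPM (log2 fold change −0.93, edgeR adjusted p = 0.000944), and Rbfa, a small-subunit maturation factor, from 17.2 ± 1.68 to 10.7 ± 1.14 CPM. Mettl17, also needed for the small subunit, rose from 8.96 ± 0.608 to 11.1 ± 0.723 CPM (log2 fold change 0.31, edgeR adjusted p = 0.0493), a call lost with RLE scaling (edgeR adjusted p = 0.0803).

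The products that this ribosome translates, the 13 messenger RNAs of the mitochondrial chromosome, were all lower in obese hearts (median −0.80, and −0.36 with 9 lower on unscaled totals), without overlap for any of them. mt-Nd5, a complex I subunit, had the smallest p, at −1.04 ± 0.19 (SE; edgeR adjusted p = 0.00191). The ribosomal RNAs went the other way. mt-Rnr1, the RNA of the small subunit, was at 36.4, 79.8, 43.5 and 38.4 CPM in control, at 204, 749, 115 and 212 CPM in obese, and at 260, 28.2 and 37.6 CPM in treated libraries. Every obese library lay above every control library, and obese replicate 2 stood far above the rest (log2 fold change 2.69 ± 0.87 SE, edgeR adjusted p = 0.0456). mt-Rnr2, the RNA of the large subunit, had means of 115 ± 43.8, 644 ± 627 and 203 ± 231 CPM in the same order, and its change of 2.49 missed the threshold (edgeR adjusted p = 0.053). Mitochondrial genes have near-identical nuclear copies, so these counts are uncertain. Both ribosomal RNAs were also far less abundant than the 13 messenger RNAs, which summed to 363558 CPM on average in control libraries. How far library preparation set the counts of the ribosomal RNAs was not tested.

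Among 13 regulators of nuclear mitochondrial genes 5 were lower and 1 higher. Gabpa, the DNA-binding subunit of the factor whose ETS core is shown above, was at 46.7, 44.8, 43.1 and 47.4 CPM in control and at 30.7, 30.4, 35.0 and 32.0 CPM in obese libraries. The groups were far apart for their spread (log2 fold change −0.51 ± 0.08 SE, edgeR adjusted p = 0.0011). On unscaled totals its change was −0.08 (edgeR adjusted p = 0.569), and that of Yy1 −0.02 (edgeR adjusted p = 0.88). Gabpb2, an alternative partner of it, rose from 33.8 ± 2.41 to 41.4 ± 2.43 CPM (SD, n = 4 each; log2 fold change 0.29, edgeR adjusted p = 0.0267). Yy1 fell by 0.45 and Myc by 1.30 on the log2 scale. Tfb2m and Tfam, which act in transcription of the mitochondrial chromosome, fell by 1.03 and 0.89. Nrf1, which binds the palindrome core, had a change of 0.14 that did not pass, and Esrra one of −0.11 that did not pass either. On unscaled totals, where 38.1% of all genes were higher, Nrf1 (0.55, edgeR adjusted p = 0.00976) and Esrra (0.30, edgeR adjusted p = 0.0331) were called higher.

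For comparison, 79 of 82 cytosolic ribosomal protein genes were lower in obese hearts (median −0.95), as were 32 of 36 nuclear complex I genes with Nduf symbols (median −0.73). On unscaled totals these counts were 61 and 19, with medians of −0.50 and −0.30. The mitochondrial ribosomal proteins, at 38 of 78 and −0.45, stood between these and protein-coding genes as a whole, of which 22.2% were lower. Differences between the lists were not tested.

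The comparison of treated with obese hearts asks whether the cocktail altered these transcripts in obesity. No member was called: 0 of 78 were lower and 0 higher, and 0% of all 23779 genes passed in edgeR's quasi-likelihood test. At an unadjusted p under 0.05 there were 3 members higher and 0 lower, beside 5.04% of all genes higher and 5.16% lower. DESeq2 called 0 members too, beside 0.336% of all genes lower and 0.214% higher. With limma voom 0 members were called, beside 0.0042% of all genes lower and 0% higher. Of the fitted changes 68 were above 0 and 10 below, with a median of 0.13, beside −0.01 over all genes and 0.04 over protein-coding genes. Fitted with the replicate number as a block, the median was 0.22 with 76 above 0, and 0 members were called, while 24 were higher at an unadjusted p under 0.05, beside 7.68% of all genes in that fit. That count was 14 without obese replicate 4 and 24 without obese replicate 4 and control replicate 2, beside 5.45% and 7.29% of all genes. With the intronic share as a covariate the median was −0.07.

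Mrpl52, specific to mitochondria, had the smallest p. It was at 9.48, 6.80, 10.6 and 13.9 CPM in control, at 4.83, 6.71, 5.40 and 6.88 CPM in obese, and at 7.85, 9.90 and 8.21 CPM in treated libraries. Every treated library lay above every obese library, yet the change of 0.54 ± 0.21 (SE) had an edgeR adjusted p of 0.428. Mrpl42 was at 31.1, 42.2 and 33.3 CPM in treated libraries, above all 4 obese libraries, with a change of 0.49 (edgeR adjusted p = 0.509). Mrps24, at 11.9, 16.1 and 11.3 CPM, overlapped with the obese libraries (change 0.40, edgeR adjusted p = 0.49). Mrpl4, at the peptide tunnel, was at 46.0, 38.5, 48.8 and 49.2 CPM in control, at 34.6, 29.6, 31.4 and 41.0 CPM in obese and at 43.9, 42.2 and 38.7 CPM in treated libraries (change 0.28, edgeR adjusted p = 0.482).

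Mrpl53 had the largest fitted change above 0, 0.98, with a 95% interval from −0.29 to 2.25. The largest below 0 were those of Mrps9 (−0.09, 95% interval from −0.37 to 0.18) and Mrps22 (−0.08, from −0.46 to 0.30), both of the small subunit. For 5 genes, Mrpl33, Mrpl42, Mrpl52, Mrpl53 and Mrps36, each treated library lay above each obese library (6.41%), beside 4.68% of all genes above and 5.45% below in that sense. Intervals of the genes with the smallest p in the diet comparison still held changes of some size: that of Mrps30 ran from −0.04 to 0.59 and that of Mrps15 from −0.07 to 0.53. For Mrps18b and Mrps18c, at −0.01 and 0.02, they ran from −0.35 to 0.32 and from −0.39 to 0.44. Treated replicate 2, with the highest summed level of its group, also had the group's lowest intronic share.

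The comparison of treated with control hearts shows what remained different from the control diet under the cocktail. There 14 of the 78 genes were lower, 0 higher and 64 did not pass, with a median of −0.32. Over all genes 8.39% were lower and 7.43% higher. Among protein-coding genes with a mean CPM in the range of the 78 genes these shares were 13.1% and 7.65%. Of the 14 lower genes 8 were large-subunit and 6 small-subunit genes. The 14 were Mrpl1, Mrpl9, Mrpl11, Mrpl15, Mrpl30, Mrpl33, Mrpl40, Mrps15, Mrps18b, Mrps18c, Mrps23, Mrps24, Mrps30 and Mrps31. The comparison shares its control libraries with that of obese hearts.

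Mrpl15 had the smallest p, at 32.0, 27.1, 31.4 and 40.1 CPM in control and 22.1, 20.5 and 21.1 CPM in treated libraries (log2 fold change −0.62 ± 0.14 SE, edgeR adjusted p = 0.0119). The groups were apart, and its obese values of 19.9, 18.5, 19.3 and 24.4 CPM spanned the treated ones. Mrps15 was at 15.7, 18.0 and 14.1 CPM in treated libraries, under all control libraries (log2 fold change −0.63, edgeR adjusted p = 0.0122). Mrps30 had a change of −0.65 (edgeR adjusted p = 0.0131). Mrps18c, at 5.78, 6.67 and 4.24 CPM, had the largest called change, −0.84 ± 0.20 (SE; edgeR adjusted p = 0.0147). Mrpl53 stood next to it with −0.83 but did not pass (95% interval from −2.10 to 0.45).

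The largest change above 0 was that of Mrps6, at 3.45, 6.67 and 6.53 CPM in treated libraries (0.64, edgeR adjusted p = 0.0887). Treated replicates 2 and 3, the libraries with the highest atrial markers of their group, held its highest values. Mrps11 was at 4.02, 3.13, 3.58 and 5.21 CPM in control and at 3.71, 4.88 and 4.16 CPM in treated libraries, with overlapping groups and a change of 0.09. Mrpl12, Mrps18a and Mrpl57 had changes of −0.08, −0.02 and −0.06 that did not pass.

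The 14 calls changed with single libraries. Without control replicate 1, 3 or 4 the count was 6, 8 and 5, without treated replicate 1, 2 or 3 it was 8, 8 and 0, and without control replicate 2 it was 32, so that 0 of the 14 held in every such fit. In the same order, 4.37%, 5.87%, 4.36%, 5.13%, 5.77%, 2.25% and 11.5% of all genes were lower in those fits. With the intronic share as a covariate 0 of the 78 were lower. Without the 3 libraries of highest atrial marker level 0 were lower as well, in a fit where 1 treated library was left, assumed to vary like the other groups, and where 0.546% of all genes were lower. On unscaled library totals 0 were lower and 6 higher (7.69%), beside 1.64% of all genes lower and 29.1% higher, and the median turned to 0.12, beside 0.47 over all genes. Across the 78 genes the treated mean lay between the obese and control means for 65, under both for 10 and above both for 3. The same count was not made over all genes, so it cannot set these genes apart.

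**Figure D5:**
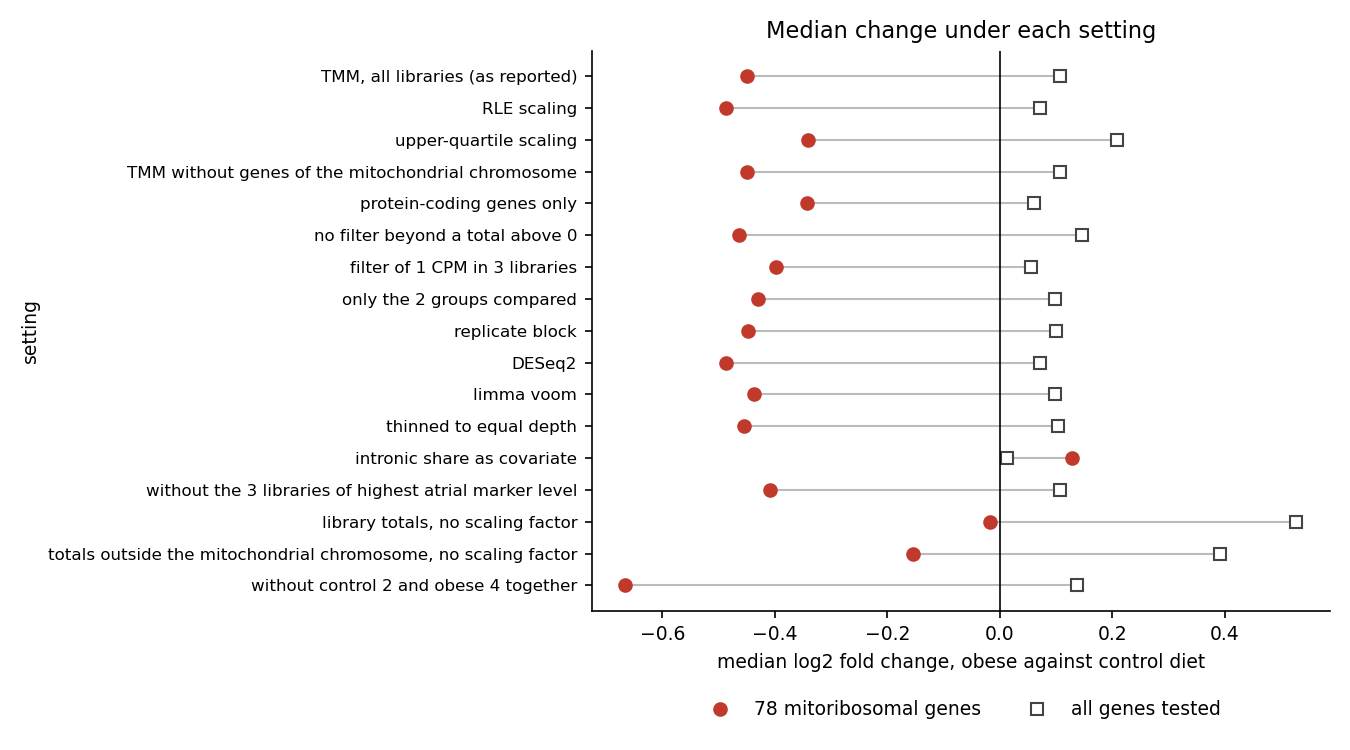
Median log2 fold change, obese against control (horizontal axis), of the 78 genes (filled circles) and of all genes tested (open squares) under each setting (vertical axis). The 78 genes lie to the left of all genes, by 0.56 with TMM, in each setting drawn except the fit with the intronic share as a covariate, where their median is 0.13. A change of scaling moves both medians about alike.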

How the data were processed

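The authors deposited 1 table of whole-number counts per Ensembl gene for 11 mouse heart libraries. The submitters' processing notes name cutadapt, HISAT2, StringTie and GRCm38. The sources used here do not give the annotation, whether strand was used, or whether values are counted reads or coverage estimates. Of 55487 identifiers 55227 were in GENCODE GRCm38, which supplied symbols, positions and exons.

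Counts were filtered with filterByExpr (minimum count 10, total 15), scaled by TMM and fitted by robust quasi-likelihood (edgeR 4.0.16, R 4.3.3) over all 11 libraries with a term per group. P-values were adjusted by Benjamini-Hochberg over 23779 genes per comparison, with a threshold of 0.05. Standard errors were the size of the log2 fold change over the root of its F statistic, and intervals are 95%. Levels are CPM on TMM-scaled library sizes, as mean ± SD. Only the edgeR fit of obese against control was tried on simulated counts, with few genes changed, in both directions. Such counts meet the assumption of TMM, so they cannot test the scaling.

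The genes and lists were chosen with earlier results of these data known. Named genes are the 6 with the smallest p within each subunit in obese against control, and over all 78 the 4 largest changes each way, the 6 highest and 3 lowest per kilobase, the 4 smallest p and 2 largest changes each way in the other comparisons, 9 fixed genes, and 2 genes per list. Genes outside this rule (the printed start regions, neighbours, Slc5a3 and lists of called genes) were chosen after their values were seen. Deviations of same-numbered obese and treated libraries correlated at 0.40, 0.11 and 0.34, and those of control with obese at 0.027 to 0.15. Libraries of different numbers were not compared, so a link by number was not tested. Libraries of 1 group differed by far more than sampling noise. Alternatives were other scalings and filters, protein-coding genes only, 2-group fits, a replicate block, DESeq2 1.42.0, limma 3.58.1 voom, thinning, the intronic share as a covariate and leaving out libraries. Motifs were searched on both strands of RefSeq windows.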

Additional observations from a re-analysis of the deposited data

Results flagged for a closer look

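Among 80 sets of 4 libraries checked (33 named genes and 7 library measures, each in the control and obese groups), 4 held a library far from the other 3, by Dixon's 95% criterion. Chance gives such a library in about 1 in 20 sets. Mrpl49 was at 9.42 CPM in control replicate 2 and at 12.1 to 12.6 CPM in the other control libraries. Mrps18b was at 23.0 CPM in control replicate 4 and at 18.6 to 19.2 CPM in the others. Mrpl34 was at 15.2 CPM in obese replicate 4 and at 9.55 to 9.95 CPM in the other obese libraries. Mrps6 was at 5.24 CPM in obese replicate 3, a library with high atrial markers, and at 3.30 to 3.61 CPM in the others.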

How the results depend on the processing

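Of the 78 genes 38 were lower in obese than in control hearts as reported. When each library was left out the count was 28 to 60 (60 without control replicate 2). It was 23 on totals outside the mitochondrial chromosome without scaling and 9 (and 3 higher) on library totals without scaling. With a covariate for the intronic share it was 0, and it was 63 without control replicate 2 and obese replicate 4 together. The 2 settings without scaling and the last were chosen after seeing the data. Over all genes 15.7% were lower as reported, 11.8% to 18.7% in the leave-one-out fits and 17.8% without control replicate 2 and obese replicate 4. That share was 6.77% on totals outside the mitochondrial chromosome, 4.04% on library totals (38.1% higher) and 0.362% with the covariate. Without the 3 libraries of highest atrial marker level, a fit with 1 treated library, the median of the 78 genes was −0.41. The median log2 fold change of the 78 genes was −0.15 on totals outside the mitochondrial chromosome, −0.018 on library totals and 0.13 with the covariate, and it kept its sign in the other 13 settings and in the 11 leave-one-out fits. In treated against control hearts the 14 lower genes became 0 to 32 in the leave-one-out fits (0 or 1 higher), 0 with the covariate, 0 without the 3 atrial-marker libraries, 0 (and 6 higher) on library totals, 5 (and 1 higher) on totals outside the mitochondrial chromosome, and 33 without control replicate 2 and obese replicate 4. Over all genes 2.25% to 11.5% were lower in those leave-one-out fits, 1.27% with the covariate and 1.64% on library totals (29.1% higher). On totals outside the mitochondrial chromosome 3.05% were lower and 14.1% higher, and 11.2% were lower without control replicate 2 and obese replicate 4. The median of the 78 genes was 0.044 with the covariate and 0.12 on library totals. In treated against obese hearts 0 of the 78 genes were called in each setting, and their median was −0.072 with the covariate. Over all genes the largest shares called there were 0.336% lower and 0.214% higher, with DESeq2. The cause of these differences was not tested, beyond fewer libraries where some were left out.

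Deviations of same-numbered libraries of the obese and treated groups correlated at 0.11 to 0.40 over genes. The range was 0.027 to 0.15 for control with obese and −0.20 to 0.030 for control with treated. Libraries of different numbers were not compared, and the labels give the numbers no meaning. With the replicate number as a block, 51 of the 78 genes were lower in obese against control, 10 in treated against control and 0 in treated against obese hearts. Over all genes those shares were 16.0%, 6.00% and 0%. The block turned the sign of Mrps22 (0.0066) and Mrps18b (0.085) in treated against obese, and of Mrpl12 (0.062), Mrps12 (0.0044), Mrps18a (0.076) and Mrpl57 (0.016) in treated against control hearts.

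Over 59 values of named genes 104 sign changes were seen, 4 of them in genes called as reported (Mrpl14, Mrpl53, Mrps21 and Mrps36, with the covariate). With the covariate, obese against control, the values were 0.0036 for Mrpl53, 0.018 for Mrps21, 0.19 for Mrpl14, 0.24 for Mrps36, 0.64 for Mrpl19, 0.42 for Mrpl49, 0.62 for Mrpl34, 0.64 for Mrpl12, 0.18 for Mrpl41, 0.49 for Mrps22, 0.40 for Mrpl57, 0.39 for Mrps12 and 0.49 for Mrps18a. Treated against obese, it gave −0.15 for Mrpl12, −0.0014 for Mrps36, −0.075 for Mrps18a, −0.25 for Mrps18c and −0.12 for Mrpl57, and treated against control 0.30 for Mrpl53, 0.50 for Mrpl12, 0.44 for Mrps12, 0.24 for Mrps36, 0.42 for Mrps18a and 0.27 for Mrpl57. On library totals, obese against control, Mrps10 was at 0.37, Mrpl19 at 0.39, Mrpl49 at 0.30, Mrpl12 at 0.16, Mrpl41 at 0.20, Mrps22 at 0.31, Mrpl57 at 0.29 and Mrps18a at 0.24, and treated against control Mrpl12 was at 0.36, Mrps12 at 0.28, Mrpl58 at 0.12, Mrps36 at 0.12, Mrps18a at 0.41 and Mrpl57 at 0.37. On totals outside the mitochondrial chromosome the same 8 genes were at 0.24, 0.25, 0.17, 0.019, 0.061, 0.17, 0.15 and 0.11, Mrps18c at −0.029 in treated against obese, and Mrpl12, Mrps12, Mrps18a and Mrpl57 at 0.18, 0.090, 0.23 and 0.18 in treated against control hearts.

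Smaller sign changes came from upper-quartile scaling (Mrps10 0.062 and Mrpl19 0.065 in obese against control, Mrps18c −0.022 in treated against obese, Mrps18a 0.050 and Mrpl57 0.0064 in treated against control) and, in that order of genes, from protein-coding genes only (0.062, 0.062, −0.024, 0.046 and 0.0035). The filter of 1 CPM gave 0.012 for Mrps10, 0.0068 for Mrpl19 and 0.018 for Mrps18a, the fit of 2 groups 0.0043 for Mrps18a, and thinning −0.0075 for Mrps18c. Without the 3 atrial-marker libraries, a fit with 1 treated library whose spread is taken from the other groups, Mrps6 was at −0.020 and Mrpl19 at 0.0080 in obese against control, Mrps9 at 0.097, Mrps18b at 0.11 and Mrps18c at −0.011 in treated against obese, and Mrps6 at −0.036, Mrps11 at −0.090, Mrpl12 at 0.029, Mrps18a at 0.16 and Mrpl57 at 0.073 in treated against control. Without control replicate 2 and obese replicate 4, Mrps18b was at 0.11 in treated against obese and Mrps11 at −0.015 in treated against control. Leaving out each library gave ranges across 0 for Mrps6 (−0.019 to 0.22), Mrps10 (−0.12 to 0.0097) and Mrpl19 (−0.19 to 0.051) in obese against control, for Mrps22 (−0.21 to 0.017), Mrps18b (−0.13 to 0.10) and Mrps18c (−0.13 to 0.19) in treated against obese, and for Mrps11 (−0.026 to 0.24), Mrpl12 (−0.25 to 0.062), Mrps18a (−0.14 to 0.089) and Mrpl57 (−0.17 to 0.042) in treated against control hearts.

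With 3 or 4 libraries a group, small changes of single genes could not be resolved, and counts of calls moved with single libraries. Thinning all libraries to the smallest total gave 39 lower genes in obese and 15 in treated against control hearts, beside 15.8% and 8.15% of all genes. The intronic share, scaling and the diet could not be separated in these libraries.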
